A study of Mus musculus with 9 samples.

Results

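The genes described here are 10 genes of endothelial junctions and capillaries, namely Pecam1, Cdh5, Esam, Emcn, Dll4, Gpihbp1, Kdr, Tek, Tie1 and Eng. Their values are the rows of the array whose platform annotation gave one of these symbols. The symbols found 12 cDNA clones of 8 genes among 17664 rows, of which 12563 carried 1 gene symbol. Pecam1 had 4 clones, Cdh5 had 2, and Esam, Emcn, Dll4, Gpihbp1, Tek and Tie1 had 1 each. No row carried the symbol Kdr or Eng, so these genes have no value here.

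The samples were stroma cut by laser from frozen prostate sections of male FVB mice hemizygous for CR2-TAg, a transgene that places SV40 large T antigen in prostatic neuroendocrine cells under cryptidin-2 regulatory elements. The groups were stroma of invasive tumors at 24 weeks of age (6 arrays, replicates 1 to 6) and stroma beside prostatic intraepithelial neoplasia, PIN, at 10 weeks (3 arrays, replicates 2, 3 and 4), with 1 mouse per array. All mice carried the transgene, so there was no tumor-free group, and age and tumor stage cannot be told apart. On every array the sample was in Cy5 and a pool of 4 PIN samples in Cy3, and each clone has a log2 ratio, sample over pool. Each PIN sample was thus compared with a pool that held its own RNA, the dyes were not swapped, and the array of the fourth PIN sample was not analysed here. A stage difference below is the mean log2 ratio of the invasive arrays minus that of the PIN arrays.

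Endothelial cells line blood vessels and are held together by adherens junctions built on VE-cadherin, with PECAM1 and ESAM as further adhesion molecules at the same borders. Vessel growth is driven by VEGF through the receptor KDR, and VEGF raises the Notch ligand DLL4, which restrains sprouting in neighboring cells. The receptor TEK answers to angiopoietins in vessel maturation, with TIE1 as a further receptor of that system. Endoglin (Eng) assists receptors of the TGF-beta and BMP ligands. GPIHBP1 carries lipoprotein lipase to the lumen of capillaries, and endomucin (Emcn) is a sialomucin of capillary and venous endothelium. Microdissected stroma holds vessels together with other stromal cells, and in such bulk RNA fewer cells of a type and less RNA per cell cannot be told apart.

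Over all clones the arrays correlated at r = 0.256 to 0.769 within invasive stroma and 0.176 to 0.672 within PIN stroma. Between the groups r ran from 0.218 to 0.529. PIN replicate 4 stood apart, with 0.176 and 0.189 to the other PIN arrays. Invasive replicate 3 correlated with PIN replicates 2, 3 and 4 at 0.529, 0.436 and 0.251. With invasive replicates 1, 2, 4, 5 and 6 the same array correlated at 0.560, 0.338, 0.487, 0.307 and 0.256. The SD of all log2 ratios was 0.69 to 0.81 per invasive array and 0.54 to 0.57 per PIN array. Spot intensities were not used here, so the distance of each clone from background is unknown, and the p-values rest on the spread between 6 and 3 mice.

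The 250 bases before the transcription start are shown for Dll4 and Emcn, which passed the test of stage difference, and for Tie1 and Tek, which did not, because endothelial promoters are known targets of ETS transcription factors. The sequences are RefSeq's for GRCm38.p6, written 5′ to 3′ on the strand of the gene. Capitals mark AGGAAG, the only form of an ETS site searched, or its reverse complement CTTCCT. Other forms, such as GGAA without these outer bases, were not searched and stay in lower case. The table of promoters used here had no entry for Cdh5, Esam, Pecam1 or Gpihbp1.
Dll4, chr2:119325534-119325783, plus strand: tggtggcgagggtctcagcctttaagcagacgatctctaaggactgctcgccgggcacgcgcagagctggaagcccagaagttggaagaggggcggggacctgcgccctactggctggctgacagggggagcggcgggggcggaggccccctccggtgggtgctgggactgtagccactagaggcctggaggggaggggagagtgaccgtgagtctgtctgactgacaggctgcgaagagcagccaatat
Emcn, chr3:137340828-137341077, plus strand: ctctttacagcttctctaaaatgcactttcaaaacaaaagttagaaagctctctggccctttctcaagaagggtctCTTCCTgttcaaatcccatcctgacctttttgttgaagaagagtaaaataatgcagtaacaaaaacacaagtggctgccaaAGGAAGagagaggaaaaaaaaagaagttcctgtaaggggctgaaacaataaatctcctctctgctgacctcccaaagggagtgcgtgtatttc
Tie1, chr4:118489850-118490099, minus strand: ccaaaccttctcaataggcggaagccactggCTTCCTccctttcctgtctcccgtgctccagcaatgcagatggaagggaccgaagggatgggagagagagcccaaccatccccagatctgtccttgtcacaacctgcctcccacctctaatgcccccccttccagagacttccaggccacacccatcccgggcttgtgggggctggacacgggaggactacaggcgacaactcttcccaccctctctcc
Tek, chr4:94739039-94739288, plus strand: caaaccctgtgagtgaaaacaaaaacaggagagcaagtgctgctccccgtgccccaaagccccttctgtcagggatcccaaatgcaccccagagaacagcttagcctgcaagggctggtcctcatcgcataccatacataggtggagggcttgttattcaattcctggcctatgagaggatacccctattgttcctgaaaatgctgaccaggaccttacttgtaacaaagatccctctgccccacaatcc

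The Emcn promoter held 2 matches to this motif, the Tie1 promoter held 1, and those of Dll4 and Tek held 0, while 29.5% of all 32851 promoters of this length held at least 1. The GATA motif AGATAA or its reverse complement TTATCT was present in 0 of these 4 promoters and in 9.99% of all promoters. GC content was 65.6% for Dll4, 60.4% for Tie1, 51.2% for Tek and 40.8% for Emcn, against a median of 52.4% over all promoters. The Dll4 promoter had 14 CG pairs and the Emcn promoter 1. The arrays measured no binding to these stretches.

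Dll4, Esam, Emcn and Gpihbp1 were higher in invasive cancer stroma than in PIN stroma, by 2.72-fold to 4.85-fold. Of 8 genes measured, these 4 passed the test as higher and 0 as lower, and among all 8106 genes tested with the clones of a symbol averaged, 3.75% passed as higher and 1.89% as lower. Of the 12 clones taken apart, 6 (50%) passed as higher and 0 as lower, against 1.52% and 0.639% of 17207 clones. The test was limma's moderated comparison with Benjamini-Hochberg adjustment over all genes or all clones, and an adjusted p under 0.15 counted as passed. The study used the same false discovery rate. At 0.05 the same 4 genes passed against 0.703% of all genes, and the clones of Esam, Dll4 and Gpihbp1 against 0.343% of all clones. No PIN array reached the lowest invasive array for 5 of the 8 genes (4.86% of all genes) and 6 of the 12 clones (3.73% of all clones), and the reverse held for 0 genes (2.99%) and 0 clones (2.52%). The stage difference was above 0 for all 8 genes and for 10 of 12 clones, and its median over the 8 genes was 1.36, beside 0.01745 over all genes. The study picked clones of Esam, Pecam1, Cdh5, Dll4 and Gpihbp1 on these same samples, so these counts are not independent evidence of direction.

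**Figure D1:**
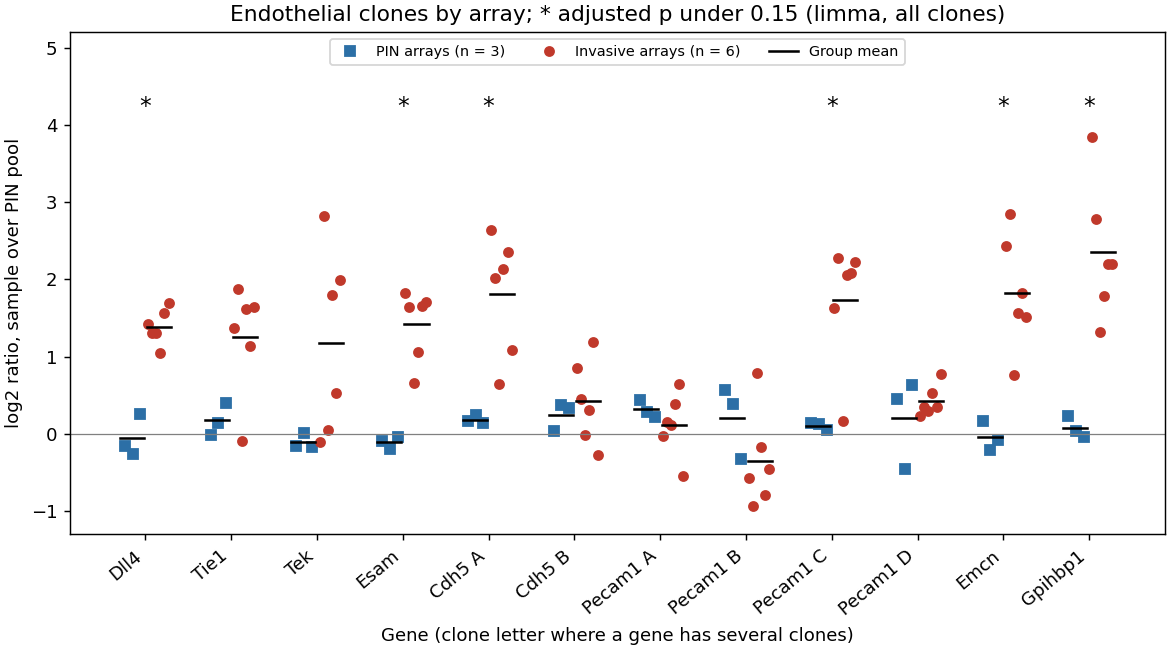
Log2 ratio of sample over PIN pool (vertical axis) for each of the 12 clones (horizontal axis), with PIN arrays as blue squares (n = 3), invasive arrays as red circles (n = 6), group means as black bars and an asterisk over clones with an adjusted p under 0.15 from limma. The clones of Dll4, Esam, Emcn and Gpihbp1, Cdh5 clone A and Pecam1 clone C have all 6 invasive arrays above all 3 PIN arrays.

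Dll4, the Notch ligand of sprouting endothelium, had the smallest p among these genes, rank 12 of 8106. Its log2 ratio on the invasive arrays was 1.05 at the lowest, 1.36 at the median and 1.70 at the highest, and on PIN replicates 2, 3 and 4 it was -0.16, -0.26 and 0.26. All invasive arrays were above all PIN arrays. The invasive mean was 1.39 ± 0.23 (SD, n = 6) and the PIN mean -0.054 ± 0.28 (SD, n = 3). The stage difference of 1.44 (SE 0.20) was 2.72-fold, with an adjusted p = 0.00755 from limma. Dll4 passed without each array in turn, and its lowest invasive array was replicate 4, whereas for 5 of the 8 genes it was replicate 3.

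Tie1 and Tek, the receptors of the angiopoietin system, did not pass. Tie1 had log2 ratios of -0.091, 1.495 and 1.88 at the lowest, median and highest of the invasive arrays and -0.011, 0.14 and 0.40 on the PIN arrays. Invasive replicate 3 was the only invasive array within the PIN range or below it. The stage difference of Tie1 was 1.08 (SE 0.36, 95% interval 0.30 to 1.87, limma adjusted p = 0.167), and without invasive replicate 3 it was 1.35 and passed (limma adjusted p = 0.00606). Tek varied most among the 6 genes with 1 clone, with an SD of 1.19 between invasive arrays. Its log2 ratio was -0.10 on invasive replicate 1, 0.047 on replicate 3 and 0.53 on replicate 5, and 1.80, 1.99 and 2.82 on replicates 4, 6 and 2. The PIN arrays read -0.15, 0.016 and -0.17, so invasive replicate 1 lay within the PIN range and replicate 3 just above it. The stage difference of Tek was 1.28 (SE 0.56, 95% interval 0.057 to 2.51, limma adjusted p = 0.309).

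Esam, an immunoglobulin-like adhesion molecule of tight junctions, was higher in invasive stroma with no overlap. Its log2 ratio ran from 0.66 over a median of 1.65 to 1.83 on the invasive arrays, and the PIN arrays read -0.092, -0.20 and -0.034. The means were 1.43 ± 0.46 (SD, n = 6) and -0.11 ± 0.084 (SD, n = 3), a stage difference of 1.53 (SE 0.26) or 2.90-fold, with an adjusted p = 0.0230 from limma. The gene passed without each array in turn, whereas its clone, adjusted over all clones, did not pass without PIN replicate 2 (limma adjusted p = 0.213) or PIN replicate 3 (limma adjusted p = 0.182). These losses were general: of all clones 371 passed with all arrays, 37 without PIN replicate 2 and 68 without PIN replicate 3.

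Cdh5, which encodes VE-cadherin, had clones that differed. Clone A had log2 ratios of 0.65, 2.08 and 2.64 at the lowest, median and highest of the invasive arrays, all above its PIN values of 0.16, 0.25 and 0.14. Its stage difference was 1.63 (SE 0.39) or 3.10-fold and passed among clones (limma adjusted p = 0.0977). Clone B lay between -0.27 and 1.19 on the invasive arrays with a median of 0.38, around its PIN values of 0.033, 0.37 and 0.33, and its stage difference was 0.17 (SE 0.31, limma adjusted p = 0.918). Averaged over its clones, Cdh5 was 1.12 ± 0.63 (SD, n = 6) on invasive and 0.21 ± 0.11 (SD, n = 3) on PIN arrays without overlap, but the difference of 0.90 (SE 0.33, 95% interval 0.19 to 1.62) did not pass (limma adjusted p = 0.205). Without invasive replicate 3, the lowest array of clone A, the mean of the clones passed (difference 1.06, limma adjusted p = 0.0641). Clone A did not pass in 6 of the 9 fits that left out an array, namely without invasive replicate 2, 4 or 5 or PIN replicate 2, 3 or 4, with limma adjusted p-values of 0.189 to 0.366.

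Pecam1, the platelet and endothelial adhesion molecule CD31, passed on 1 of its 4 clones. Clone C had invasive log2 ratios of 0.17 at the lowest, 2.07 at the median and 2.28 at the highest, and PIN values of 0.14, 0.13 and 0.045. Invasive replicate 3 stood just above the PIN arrays while the other 5 invasive arrays were at 1.63 or more. The stage difference of clone C was 1.63 (SE 0.40) or 3.11-fold (limma adjusted p = 0.105). It did not pass without invasive replicate 2, 4, 5 or 6 or PIN replicate 2, 3 or 4 (limma adjusted p = 0.187 to 0.368), its size staying between 1.53 and 1.65. Clones A, B and D gave stage differences of -0.20 (SE 0.26), -0.56 (SE 0.36) and 0.21 (SE 0.26), with limma adjusted p-values of 0.866, 0.607 and 0.846. On clone B invasive replicate 3 was the highest array, at 0.79, and the other 5 invasive arrays were below 0, whereas on clone C the same array was the lowest. The mean of the 4 clones differed by 0.27 (SE 0.18, 95% interval -0.11 to 0.65, limma adjusted p = 0.516).

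The difference between clones of a gene was itself tested, as the per-array difference of 2 clones in invasive against PIN arrays, over the 7 pairs that Pecam1 and Cdh5 allow. The stage difference was larger by 1.46 on Cdh5 clone A than on clone B (exact permutation test, two-sided p = 0.0238, adjusted p = 0.0833 over the 7 pairs). For Pecam1 it was -1.83 for clone A relative to clone C (exact permutation p = 0.0238, adjusted p = 0.0833) and 1.42 for clone C relative to clone D (exact permutation p = 0.0476, adjusted p = 0.111). These 3 pairs passed 0.15. Clone B relative to clone C of Pecam1, at -2.20, did not (exact permutation p = 0.0952, adjusted p = 0.167), and the 3 pairs among clones A, B and D had exact permutation p-values of 0.238 to 0.429. The smallest p that 6 against 3 arrays allow is 0.0238. The clones share a symbol in the annotation, and which stretch of the transcript each carries was not tested. The pairs passing were 2 without invasive replicate 1, 2, 4, 5 or 6 and 4 without invasive replicate 3, and 0 without PIN replicate 2, 3 or 4, a design in which the smallest p allowed is larger.

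**Figure D2:**
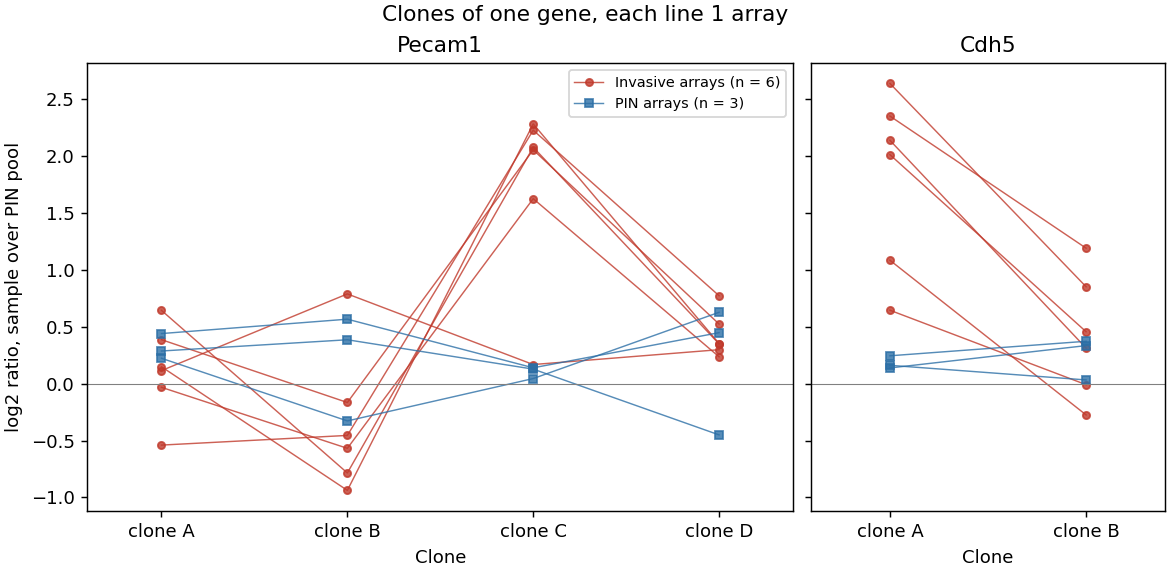
Log2 ratio of sample over PIN pool (vertical axis) for the clones of Pecam1 (left) and Cdh5 (right), each line joining the values of 1 array, invasive in red circles (n = 6) and PIN in blue squares (n = 3). On Pecam1 clone C 5 of the 6 invasive arrays rise above 1.6, while clones A, B and D keep invasive and PIN arrays mixed or, on clone B, mostly invasive below PIN.

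Emcn and Gpihbp1, the capillary surface genes, had the largest stage differences of the 8 genes, with ranks 48 and 24 of 8106. Emcn read 0.76, 1.70 and 2.84 at the lowest, median and highest of the invasive arrays, all above PIN values of 0.16, -0.21 and -0.082. The means of Emcn were 1.82 ± 0.73 (SD, n = 6) and -0.043 ± 0.19 (SD, n = 3), and the stage difference of 1.86 (SE 0.37) was 3.64-fold (limma adjusted p = 0.0431). Without PIN replicate 2 or PIN replicate 3 Emcn no longer passed, at limma adjusted p-values of 0.158 and 0.166 with stage differences of 1.97 and 1.78. Of all genes 457 passed with all arrays, 37 without PIN replicate 2 and 91 without PIN replicate 3. Gpihbp1 read 1.32, 2.20 and 3.84 at the lowest, median and highest of the invasive arrays, against 0.24, 0.037 and -0.044 on the PIN arrays. Its highest value was on invasive replicate 1 and its lowest on replicate 3. The means of Gpihbp1 were 2.36 ± 0.88 (SD, n = 6) and 0.076 ± 0.14 (SD, n = 3), and the stage difference of 2.28 (SE 0.43) was 4.85-fold (limma adjusted p = 0.0366), which did not pass without PIN replicate 2 (limma adjusted p = 0.158). Adjusted over all clones, the clones of Emcn and Gpihbp1 did not pass without PIN replicate 2 (limma adjusted p = 0.244 and 0.227) or PIN replicate 3 (limma adjusted p = 0.257 and 0.195). Without PIN replicate 4, the array that stood apart, Dll4, Esam, Emcn and Gpihbp1 all passed as genes.

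By size, the stage difference fell in the order Gpihbp1, Emcn, Esam, Dll4, Tek, Tie1, Cdh5 and Pecam1, the last at rank 1967 of 8106. The 95% intervals of neighbors in this order overlapped throughout, and the differences between genes were not tested. Over the 6 clones that passed, the PIN arrays lay between -0.26 and 0.26 and the invasive arrays between 0.17 and 3.84. Invasive replicate 3 was the lowest invasive array for 5 of these 6 clones. It was also the lowest for 24.0% of all genes and for 49.7% of the 304 genes that passed as higher.

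Marker genes of other cells differed between the same arrays, not all in the same direction. Over all 8106 genes, 3.75% passed as higher and 1.89% as lower. The gene lists here and below were chosen with earlier results of these data known. All 6 measured genes of a list of 17 macrophage and leukocyte markers were higher in invasive stroma, with a median stage difference of 2.47, and the mean of the list ran from 1.00, on invasive replicate 3, to 2.83 in invasive stroma and from -0.36 to 0.44 in PIN stroma. Without PIN replicate 2, 3 or 4, 3, 4 and 5 of these 6 genes passed. Among them Ms4a6d, a tetraspan protein of myeloid cells, differed by 3.17 and the Fc receptor Fcgr3 by 2.77 (limma adjusted p = 0.00409 for each). Lysozyme, Lyz2, differed by 3.21 (limma adjusted p = 0.0228) and the signaling chain Fcer1g by 1.97 (limma adjusted p = 0.0431). Of 7 measured fibroblast genes among 10, 3 were higher, namely the collagens Col3a1 (1.55, limma adjusted p = 0.0431) and Col1a2 (1.55, limma adjusted p = 0.0458) and fibronectin, Fn1 (2.23, limma adjusted p = 0.0458). The clones of Col3a1 differed in size, with stage differences of 2.65, 2.58, 0.78 and 0.20. Those of Col1a2 stood at 2.80, 1.63 and 0.21. The fibroblast mean ran from 0.082, again on invasive replicate 3, to 1.397 in invasive stroma and from -0.57 to 0.19 in PIN stroma. None of these 3 fibroblast genes passed without PIN replicate 2 (limma adjusted p = 0.158 to 0.184), and Fcer1g did not either (limma adjusted p = 0.184). Without that array 37 of all genes passed, against 457 with all arrays.

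Platelets also carry PECAM1 and ESAM. Their markers were measured for 2 of 9 genes, and neither passed, Itgb3 at a stage difference of 0.39 (limma adjusted p = 0.365) and Ppbp at 0.76 (limma adjusted p = 0.602), with list means of -0.34 to 1.26 on invasive and -0.32 to 0.11 on PIN arrays. The erythrocyte genes Alas2 (0.91, limma adjusted p = 0.507) and Slc4a1 (0.27, limma adjusted p = 0.602) did not pass, at list means of -0.35 to 1.44 and -0.18 to 0.43. Without invasive replicate 3, Alas2 passed (1.27, limma adjusted p = 0.146). Of lymphatic endothelium, Prox1 (0.41, limma adjusted p = 0.507) and Pdpn (-0.14, limma adjusted p = 0.889) were measured and did not pass, with list means of -0.40 to 0.59 and -0.035 to 0.12. Of 6 measured epithelial genes 0 passed, with Cldn3 at -0.72 (limma adjusted p = 0.352) and Cdh1 at -0.36 (limma adjusted p = 0.535), and list means of -1.46 to -0.17 on invasive and -1.44 to 0.80 on PIN arrays. PIN replicate 4 gave the 0.80, and without it the median difference of this list turned from -0.46 to 0.089. Of 5 measured neuroendocrine genes 1 was higher, Foxa2 (2.50, limma adjusted p = 0.0871), beside 3.75% of all genes. All 5 were above 0, with a median stage difference of 1.74. The list mean was 0.24 to 2.38 on invasive and -0.24 to 0.20 on PIN arrays. Invasive replicate 3, the lowest invasive array for 5 of the 6 passing endothelial clones, was not lowest for the neuroendocrine, epithelial and lymphatic means. Its neuroendocrine mean was 2.31, beside 2.38 on replicate 2 and 2.28 on replicate 4. Foxa2 and the epithelial and lymphatic means were highest on replicate 3, at 4.45, -0.17 and 0.59. The platelet and erythrocyte means were lowest on it, at -0.34 and -0.35. Foxa2 did not pass without invasive replicate 4 or 5 or PIN replicate 2 or 3 (limma adjusted p = 0.153 to 0.303). The part of the macrophages, fibroblasts and each of these cell types in the endothelial differences was not tested.

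**Figure D3:**
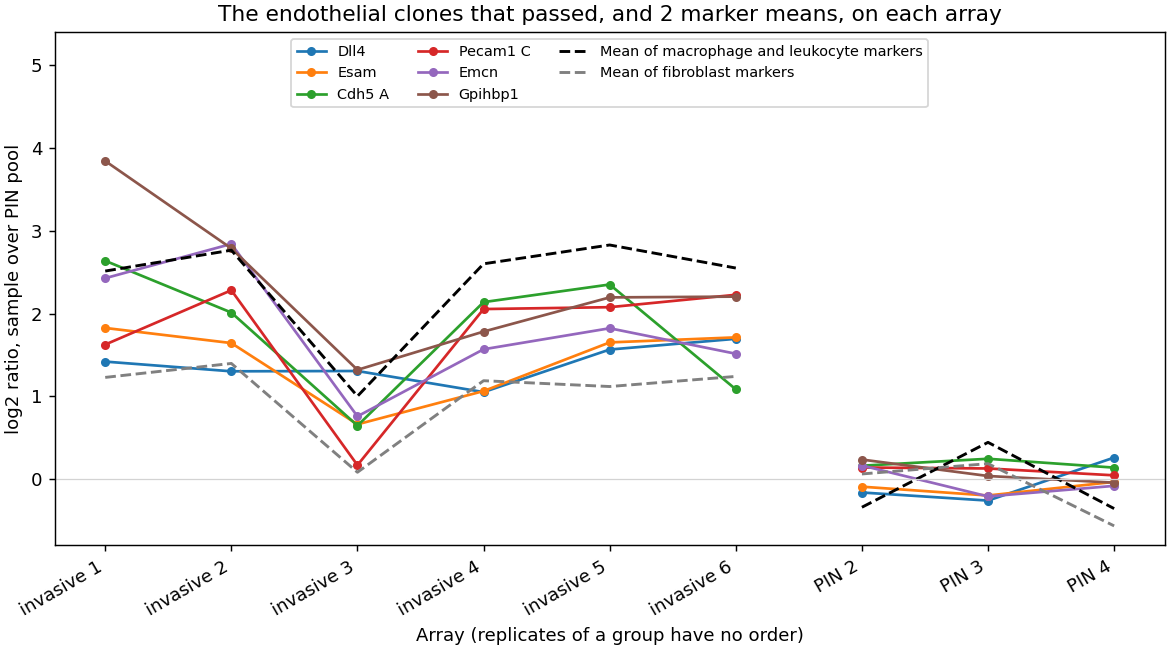
Log2 ratio of sample over PIN pool (vertical axis) on each of the 9 arrays (horizontal axis, replicates have no order) for the 6 endothelial clones that passed (solid lines), with the mean of the macrophage and leukocyte markers (black dashes) and of the fibroblast markers (grey dashes). Invasive replicate 3 is lowest for both marker means and for 5 of the 6 clones, all but Dll4.

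Genes of the VEGF, angiopoietin, Notch and endoglin pathways and of the lipase system were taken from a list of 39, of which 24 were measured. Of these, 4 were higher and 0 lower, beside 3.75% and 1.89% of all genes. The median stage difference was 0.28, beside 0.01745 over all genes, and 19 of 24 were above 0. Lpl, the lipase that GPIHBP1 binds, had the largest difference of the 4. Its log2 ratio, over 2 clones, was 0.78, 2.66 and 3.47 at the lowest, median and highest of the invasive arrays and -0.17, 0.17 and -0.039 on the PIN arrays. The stage difference of Lpl was 2.43 (SE 0.49) or 5.38-fold (limma adjusted p = 0.0431), and it did not pass without PIN replicate 2 (limma adjusted p = 0.184). Angptl4, a secreted inhibitor of that lipase, was 2.85-fold higher (1.51, SE 0.38, limma adjusted p = 0.0825). PIN replicate 3 stood at 1.02 for Angptl4, within the invasive range of 0.76 to 2.15. Angptl4 did not pass without invasive replicate 5 (limma adjusted p = 0.151), PIN replicate 2 (limma adjusted p = 0.318) or PIN replicate 4 (limma adjusted p = 0.198).

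Nrp1, a coreceptor of VEGF, was higher by 1.01 (SE 0.22) or 2.01-fold (limma adjusted p = 0.0565), with 0.65 to 1.47 on the invasive and -0.16 to 0.52 on the PIN arrays. Its clones differed in size, at 1.81 and 0.20, and without PIN replicate 3 the gene did not pass (limma adjusted p = 0.201). Notch4, an endothelial Notch receptor, was higher by 1.45 (SE 0.41) or 2.73-fold (limma adjusted p = 0.118). For Notch4 invasive replicate 3 read 0.19, inside the PIN range of -0.28 to 0.44. Notch4 did not pass in 7 of the 9 fits that left out an array, all but those without invasive replicate 1 or 3, with limma adjusted p-values of 0.153 to 0.346. Hey1, a transcription factor induced by Notch, had a difference of 1.31 (SE 0.42) and did not pass (limma adjusted p = 0.156), and Notch1 stood at -0.23 (SE 0.42, limma adjusted p = 0.866). Hey1 and Notch1 were named after their values were seen. Without invasive replicate 3 the list had 7 higher genes, and without invasive replicate 5 or PIN replicate 3 it had 2. Without PIN replicate 2 it had 1. The count of all genes passing, higher or lower, also moved, from 457 with all arrays to 896 without invasive replicate 3. It was 219 without invasive replicate 5, 91 without PIN replicate 3 and 37 without PIN replicate 2.

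Of the other endothelial identity genes, from a list of 38, 17 were measured, with 2 higher, 1 lower and a median stage difference of 0.31. Over all genes 3.75% passed as higher and 1.89% as lower. Whether the share in this list differs from that of the 8 genes was not tested. Cd36, a fatty acid receptor of capillary endothelium and of macrophages, was higher by 2.09 (SE 0.54) or 4.26-fold, with invasive arrays at 0.55 to 3.55 above PIN arrays at -0.81 to 0.32 (limma adjusted p = 0.0906). Cd36 did not pass without any 1 of the PIN arrays (limma adjusted p = 0.198 to 0.258). Cd93, a lectin-like receptor of endothelium and myeloid cells, was higher by 1.01 (SE 0.28) or 2.02-fold (limma adjusted p = 0.105), and did not pass without invasive replicate 2 or 4 or any PIN array (limma adjusted p = 0.173 to 0.317). Gata2, a transcription factor of endothelium and blood progenitors that prostate epithelium also expresses, was the 1 lower gene. Over 3 clones Gata2 read -1.299 to -0.78 in invasive and -0.22 to 0.93 in PIN stroma, a stage difference of -1.22 (SE 0.26, limma adjusted p = 0.0480), and it did not pass without PIN replicate 2 (limma adjusted p = 0.158). Cldn5, the claudin of endothelial tight junctions, stood at 0.31 (SE 0.37, limma adjusted p = 0.776), and Sox18, a transcription factor of endothelium, at 1.34 (SE 0.46, limma adjusted p = 0.178). Cldn5 and Sox18 were named after their values were seen. The list had 4 higher genes without invasive replicate 1, 6 without replicate 3, 1 without replicate 2 or 4 or PIN replicate 4, and 0 without PIN replicate 2 or PIN replicate 3.

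The lists also held partners that endothelial junctions share with other cells. Of 18 measured genes from a list of 25, including catenins, JAM proteins and zonula occludens proteins, 1 was higher and 0 were lower. Over all genes 3.75% passed as higher and 1.89% as lower, so 1 of 18 is near the share of all genes. The median stage difference was 0.028, which changed sign in some settings. The higher gene was Rap1b, a small GTPase that acts on cadherin and integrin adhesion, at 1.24 (SE 0.32) or 2.36-fold (limma adjusted p = 0.0933), with 0.083 to 1.99 on the invasive and -0.25 to -0.0018 on the PIN arrays. Rap1b did not pass in 6 of the 9 fits that left out an array, namely without invasive replicate 4, 5 or 6 or any PIN array (limma adjusted p = 0.152 to 0.303). Beta-catenin, Ctnnb1, which binds VE-cadherin in the cytoplasm, stood at 0.21 (SE 0.29, limma adjusted p = 0.813) and was named after its value was seen.

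From a list of 14 genes of mural cells, which wrap capillaries and larger vessels, 6 were measured. Among these, 1 was higher and 1 lower, beside 3.75% and 1.89% of all genes. The median was -0.061, which changed sign in some settings. Cspg4, Rgs5, Kcnj8 and Abcc9 were among the genes not measured. Pdgfrb, the receptor that pericytes and fibroblasts carry for PDGF-B, was higher by 1.14 (SE 0.26, limma adjusted p = 0.0602), with 0.47 to 1.77 on the invasive and -0.092 to 0.16 on the PIN arrays. Without PIN replicate 2 or 3 Pdgfrb did not pass (limma adjusted p = 0.221 and 0.226). Myh11, the myosin of smooth muscle, was lower, at a stage difference of -2.57 (SE 0.78, limma adjusted p = 0.136), with -4.82 to -0.53 on the invasive and -0.58 to 0.40 on the PIN arrays. Whether its RNA came from vessel walls or from other smooth muscle of the stroma was not tested. Myh11 passed only in the fits without invasive replicate 1 or 3 among those that left out an array, with limma adjusted p-values of 0.169 to 0.360 in the other 7.

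**Figure D4:**
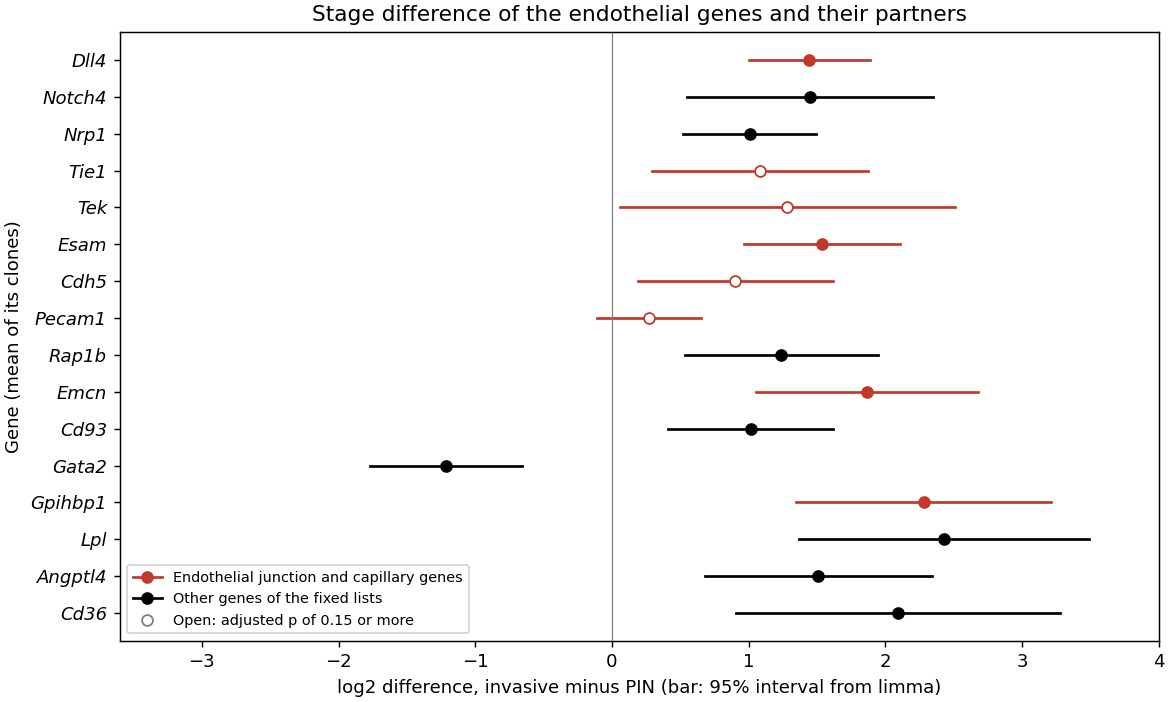
Stage difference, invasive minus PIN, in log2 units (horizontal axis) with its 95% interval from limma for the 8 endothelial genes (red) and 8 further genes of the lists (black), each as the mean of its clones, with open circles for an adjusted p of 0.15 or more. The black genes are those that passed in the lists of pathway genes, other endothelial identity genes and junction partners. Genes of these lists that did not pass, and the mural genes, are not shown. Gpihbp1 and Lpl lie at 2.28 and 2.43, and Pecam1 at 0.27 has an interval across 0. Of the genes shown, only Gata2 lies on the negative side, at -1.22.

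The genes most like the endothelial genes across the 9 arrays were found by the root mean square difference of their log2 ratios from the median profile of the 8 genes, among 8087 genes with all values. That median profile was 1.58, 1.76, 0.50, 1.397, 1.61 and 1.67 on invasive replicates 1 to 6 and 0.026 to 0.054 on the PIN arrays. The nearest genes outside the 8 were the interleukin 13 receptor chain Il13ra1 (0.22), the fibrillar collagen Col3a1 (0.24), the complement inhibitor Serping1 (0.28), the lysosomal protease Ctsz (0.29) and the gap junction protein Gja1 (0.31). Their stage differences were 1.38, 1.55, 1.07, 1.57 and 1.32, with limma adjusted p-values of 0.0620, 0.0431, 0.143, 0.0303 and 0.0818. Ctsz passed without each array in turn, and the other 4 did not pass without PIN replicate 2 (limma adjusted p = 0.158 to 0.358), Il13ra1 and Gja1 also not without PIN replicate 3, Gja1 not without invasive replicate 4 or 5, and Serping1 in none of these fits but that without invasive replicate 3. Of the endothelial genes, Esam was nearest to the median profile at 0.18, followed by Tie1 at 0.30 and Dll4 at 0.36, while Pecam1 and Gpihbp1 were farthest at 0.84 and 0.92. The 9 points share their arrays and the PIN pool, so the likeness is a description. The nearest genes were picked by their values on these same arrays. Their stage differences, p-values and passes were thus largely set by that choice and are no separate evidence. Col3a1 entered as the mean of its clones, which differed in size.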

How the data were processed

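Stroma of 9 mice was measured on spotted cDNA arrays of 17664 rows. The authors amplified the RNA in 2 rounds, labelled samples with Cy5 and the PIN pool with Cy3, and deposited log2 ratios of sample over pool after print-tip group lowess without background subtraction. Of the rows, 457 held no value and 17163 held all 9; 412 carried several symbols and 4689 none, and were tested only as clones. Clones with at least 4 invasive and 2 PIN values were fitted in R 4.3.3 with lmFit and eBayes of limma 3.58.1 (two-sided, with Benjamini-Hochberg adjustment), as invasive minus PIN, once per clone and once with the clones of a symbol averaged per array. The fits were tested on simulated data. Pairs of clones were compared by an exact permutation test (scipy 1.17.1). Named are all members, up to 4 passing genes of smallest p per list (2 where none passed) and the 5 nearest genes; others are marked. The members and lists were chosen with earlier results of these data known. The replicate numbers do not pair the samples. Alternatives were other tests, normalizations, filters, clone summaries, thresholds, array weights, the invasive arrays against the pool, a replicate block and leaving out each array. Figures and tables used Python 3.11.15 with pandas 2.3.3, numpy 2.4.6 and matplotlib 3.10.9.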

Additional observations from a re-analysis of the deposited data

Results flagged for a closer look

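Of 55 items tested for an invasive array far from the other 5, 7 stood apart. The items share the same 6 arrays, and some hold the same genes or clones. A rate of about 1 in 20, which holds for independent items, is thus no measure for this count. Invasive replicate 3 was the low array in 6 of the 7. It read 0.17 for Pecam1 clone C, 1.06 for Lyz2 and 0.10 for Gja1, and gave means of -0.32 for the junction partners, 1.00 for the macrophage and leukocyte markers and 0.082 for the fibroblast markers. Invasive replicate 6 was the low array for Cdh1, at -0.95. The cause was not tested.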

How the results depend on the processing

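The median stage difference of the 8 genes stayed between 1.21 and 1.58 in every setting run. With array weights 7 of the 8 genes were higher, against the pool 8, with the equal-variance t-test 2 and with the replicate block 2, and 2 to 6 when 1 array was left out. The setting against the pool used the invasive arrays alone, so a dye effect shared by the arrays stays in it. Over all genes, higher or lower, 1685 passed with array weights and 2595 against the pool. The equal-variance t-test lost Emcn and Gpihbp1, and the block lost Dll4 (limma adjusted p = 0.168) and Esam (limma adjusted p = 0.185). In the block, invasive arrays whose replicate number no PIN array shared added nothing to the stage difference. The block thus compared only invasive replicates 2, 3 and 4 with PIN replicates 2, 3 and 4. Its counts come from fewer arrays than the main fit, and whether its losses reflect this was not tested. Clones passing were 1 of 12 with the methods' t-test, 1 with the equal-variance t-test, 3 at 0.05 and 0 with the block, and 1 to 7 when 1 array was left out. Clone pairs passing were 0 to 4 when 1 array was left out. That count, and those of the other gene lists, were added after the data were seen. Of all clones 371 passed, but 66 with the methods' t-test, 37 with the equal-variance t-test, 2444 with array weights, 79 at 0.05, 4439 against the pool, 37 with the block and 37 to 1179 when 1 array was left out. Of all genes 457 passed, but 207, 54, 1685, 76, 2595 and 90 in the same settings, 267 by the clone of lowest p and 37 to 896 when 1 array was left out. The sign turned for Pecam1 clone D without PIN replicate 3 (-0.12, against up to 0.42 when 1 array was left out), Pecam1 clone A against the pool (0.12) and Pdpn (0.046 against the pool, 0.046 with the block, and -0.42 to 0.055 when 1 array was left out). Medians turned for epithelium (-0.83 to 0.089 when 1 array was left out), for junction partners with array weights (-0.05), quantile normalization (-0.0021), the pool (-0.063) and leaving out 1 array (-0.10 to 0.13), and for mural genes against the pool (0.16), with the block (0.073) and on leaving out 1 array (-0.073 to 0.0063). The replicate numbers did not pair the samples: same-numbered invasive and PIN arrays correlated at -0.138, -0.049 and -0.045 in their deviations from the group means. The cause of these changes was not tested.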
